A study of Sus scrofa with 20 samples.

Results

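The class II genes of the swine major histocompatibility complex (SLA) were followed in RNA-Seq read counts of boar testis and liver. Members were chosen by name: 9 symbols were listed (SLA-DRA, SLA-DRB1, SLA-DQA1, SLA-DQB1, SLA-DMA, SLA-DMB, SLA-DOA, SLA-DOB and CD74), and a reference ID counted as a member when the pig RefSeq table paired it with one of them. Of these, 8 resolved to 1 reference ID each, out of 21755 reference IDs in all, and CD74 was not resolved. The members were read as NM_001113706.1 (SLA-DRA), NM_001113695.1 (SLA-DRB1), NM_001130224.1 (SLA-DQA1), NM_001113694.1 (SLA-DQB1), NM_001004039.1 (SLA-DMA), NM_001113707.1 (SLA-DMB), NM_001185143.1 (SLA-DOA) and NM_001114064.2 (SLA-DOB). A symbol was paired with 6657 of the reference IDs, so further class II sequences may stand among the unnamed ones. The class II loci are polymorphic and resemble each other, and how a read that fits several reference sequences was counted is not given in the sources used here, so the values of SLA-DRB1, SLA-DQA1 and SLA-DQB1 in particular are uncertain to that extent.

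MHC class II molecules display peptides from engulfed material to CD4+ T cells, and they are made mainly by antigen-presenting cells such as dendritic cells, macrophages and B cells. Each molecule pairs an alpha with a beta chain. SLA-DR and SLA-DQ reach the cell surface, SLA-DM loads peptides onto them in the endosome, and SLA-DO modulates SLA-DM. The genes share a promoter module bound by RFX and NF-Y factors, and interferon gamma raises their transcription in many cells. In liver the resident macrophages are the Kupffer cells, and in testis macrophages lie in the interstitium next to the Leydig cells, which make androstenone.

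Testis and liver came from boars of a Duroc x F2 cross (F2 from Leicoma x German Landrace F1 animals and Large White), on average 116 days old at slaughter, with high or low androstenone in fat. The boars were selected by the study as extremes of a larger population, and 5 samples each made up the groups testis low, testis high, liver low and liver high, 20 libraries in all from 10 boars with no pooling. Samples carry the numbers 1 to 5 within a group, and the labels do not say that a number marks the same boar in testis and liver. Depth, as the sum of all counts of a library, was between 6161397 and 15975386 for testis and between 5796973 and 26783002 for liver. Marker levels matched the labelled tissues: INSL3, a Leydig cell hormone, had mean levels of 1444 and 1715 CPM (counts per 1000000) in the testis groups and below 1 CPM in the liver groups, and ALB, the gene of albumin, had means of 134174 and 116329 CPM in the liver groups and of 4.07 and 10.6 CPM in testis. These CPM were scaled by the TMM method over all 20 libraries. In such tissue samples, fewer cells of a type and less RNA per cell cannot be told apart. Transcript lengths were not used, so levels are compared between samples and not between genes.

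All 8 class II genes were higher in liver than in testis, and the call of SLA-DOB, which had few reads, depended on the scaling. The 8 genes had a median fold of 4.00 in favour of liver, and the folds of the 7 well covered genes lay between 3.18 (SLA-DOA) and 5.22 (SLA-DMB). With libraries scaled to their total counts only, the median fold was 1.99 and the 7 genes lay between 1.53 and 2.58. Between high and low androstenone boars, 0 of 8 genes passed the test in testis and 0 of 8 in liver. In testis 7 of 8 had the lower fitted level in high androstenone boars, with SLA-DRB1 at the largest difference, but in both tissues the groups overlapped for each of the 8 genes. Overlap was the rule, since only 1.86% of all reference IDs tested in testis and 0.555% in liver had groups that did not overlap.

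SLA-DRA, the alpha chain of the DR molecule, was measured in testis at 36.3, 63.3, 172, 90.5 and 219 CPM in the low androstenone samples 1 to 5 and at 49.8, 113, 158, 56.7 and 98.6 CPM in the high androstenone samples. In liver it was measured at 177, 303, 420, 478 and 802 CPM in the low and at 328, 588, 1012, 86.6 and 241 CPM in the high androstenone samples. Liver sample 1 of the low group and liver sample 4 of the high group lay below the highest testis sample, and the other liver samples above all testis samples. SLA-DRB1, the beta chain that pairs with SLA-DRA, had 33.7, 95, 124, 96.9 and 228 CPM in testis low and 34.1, 57.4, 85.7, 42 and 77.5 CPM in testis high. It had 269, 388, 353, 404 and 609 CPM in liver low and 223, 321, 501, 219 and 200 CPM in liver high. Here testis sample 5 of the low group reached above 3 of the 5 liver samples of the high group, and the other testis samples stayed below all liver samples.

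SLA-DQA1 and SLA-DQB1 form the second surface molecule. SLA-DQA1 was measured at 10.4, 29.9, 46.2, 41.9 and 61.9 CPM in testis low and at 24.3, 33.5, 39.4, 14.7 and 31.9 CPM in testis high. In liver its levels were 94.6, 183, 135, 182 and 182 CPM in the low and 158, 171, 228, 73.2 and 103 CPM in the high group. No testis sample reached the lowest liver sample. SLA-DQB1 ranged from 13.7 to 63.5 CPM in testis low, from 15.5 to 35.5 CPM in testis high, from 96.8 to 147 CPM in liver low and from 67.5 to 173 CPM in liver high. Its tissues did not overlap either, although the highest testis and the lowest liver sample came close.

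SLA-DMB, the beta chain of the peptide loading molecule, had the largest tissue difference of the 8 genes. It was measured at 6.71, 10.9, 16.1, 11.9 and 21.0 CPM in testis low and at 8.04, 11.5, 14.4, 7.73 and 12.2 CPM in testis high. In liver its levels were 42.7, 47.0, 52.4, 64.8 and 101 CPM in the low and 49.7, 97.9, 102, 28.1 and 41.4 CPM in the high group, so that all liver samples lay above all testis samples. SLA-DMA, its alpha chain, averaged 6.19 ± 4.43 CPM in testis low, 3.93 ± 1.54 in testis high, 17.0 ± 8.49 in liver low and 15.7 ± 12.5 in liver high (SD, n = 5 each). Testis sample 5 of the low group, at 13.7 CPM of SLA-DMA, lay above 6 of the 10 liver samples, and the lowest liver sample stood at 4.94 CPM.

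SLA-DOA, the alpha chain of the SLA-DM modulator, averaged 2.30 ± 1.22 CPM in testis low, 1.92 ± 0.999 in testis high, 6.70 ± 1.97 in liver low and 6.67 ± 4.90 in liver high (SD, n = 5 each). Between 8 and 65 reads per library stood behind the testis values and between 16 and 207 behind the liver values. SLA-DOB, the beta chain, was close to the detection limit in both tissues. Its reads in samples 1 to 5 were 0, 0, 1, 2 and 5 in testis low, 1, 7, 3, 2 and 1 in testis high, 0, 6, 2, 4 and 5 in liver low and 4, 1, 5, 0 and 2 in liver high. On the scale of these CPM, 3 reads equal 0.130 to 0.357 CPM in a testis library and 0.218 to 0.673 CPM in a liver library, a limit that covers counting error only, and 8 of the 10 testis and 5 of the 10 liver libraries had 3 or fewer reads of SLA-DOB. The libraries were amplified and carried no molecular identifiers, so reads are not independent molecules.

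**Figure D1:**
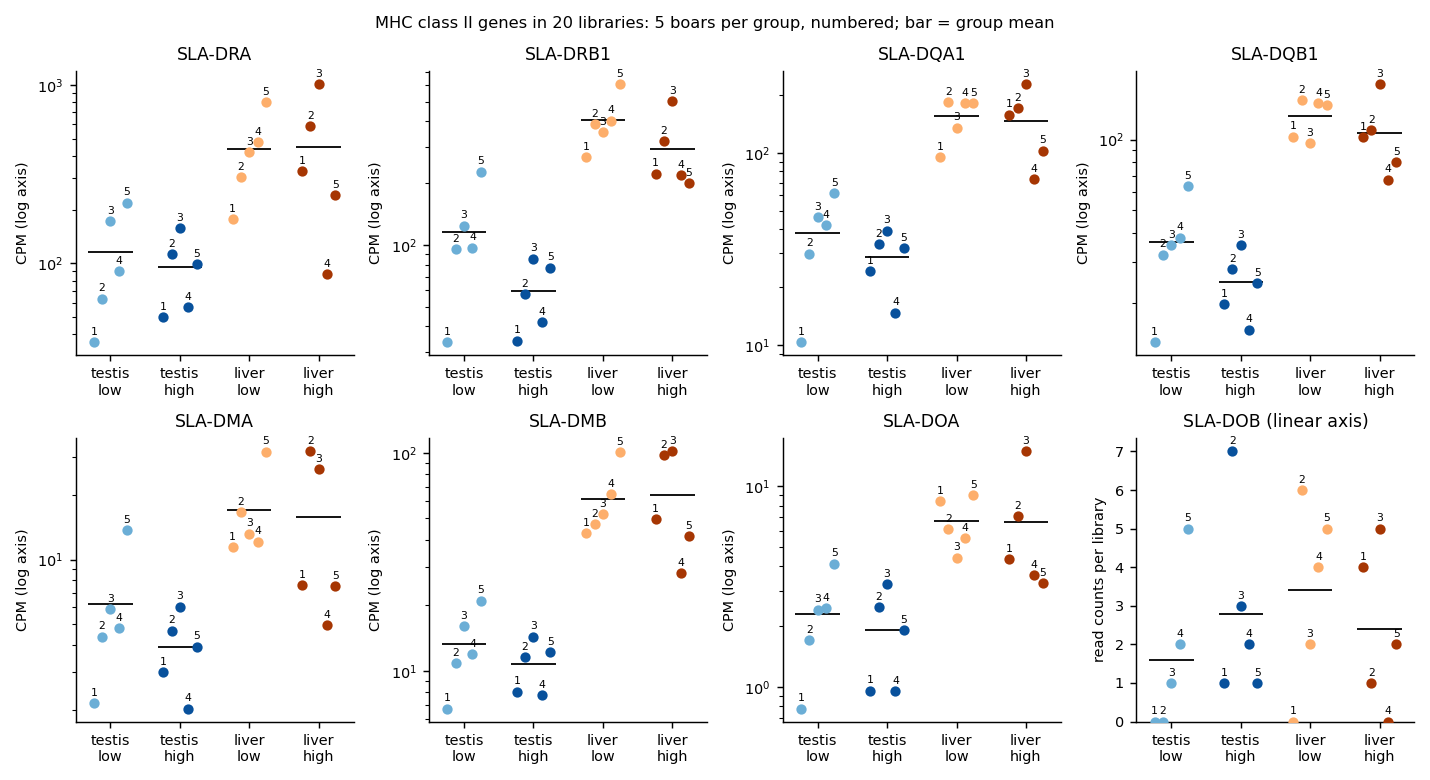
Each panel shows 1 class II gene in the 20 libraries, by tissue and androstenone group, with the sample number beside each point and the group mean as a bar. The vertical axis is CPM on a log scale, and for SLA-DOB read counts on a linear scale. The liver groups lie above the testis groups, sample 5 of the testis low group and sample 3 of the testis high group are the highest of their group for the 7 genes shown in CPM, and the points of high and low androstenone samples overlap within each tissue.

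The same samples stood at the ends of the range for gene after gene. In testis, sample 5 of the low group was the highest of its group for 7 of 7 well covered genes and sample 1 the lowest for 7 of 7. In the testis high group, sample 3 was the highest for 7 of 7, and sample 4 the lowest for 5 and sample 1 for 2. In liver, sample 5 of the low group was the highest for 5 of 7 genes and sample 1 the lowest for 5, while in the high group sample 3 was the highest for 6 and sample 4 the lowest for 5. The spread within groups was correspondingly wide. The coefficient of variation of SLA-DRA was 66.0% in testis low, 46.3% in testis high, 53.9% in liver low and 80.3% in liver high, and that of SLA-DQB1 was 48.6%, 31.2%, 19.1% and 38.2%.

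The tissues were compared over all 20 libraries in 4 groups with edgeR's quasi-likelihood test, adjusted over 19065 reference IDs, and a gene was called when its adjusted p was below 0.05 and its fold change 1.5 or more. Of all reference IDs tested, 32.2% were called higher in liver and 43.5% higher in testis, and all 8 class II genes were called higher in liver. Log2 fold changes (testis minus liver) were -2.08 for SLA-DRA (95% interval -2.87 to -1.28, adjusted p = 2.87e-05), -2.06 for SLA-DRB1 (-2.63 to -1.48, 2.81e-07), -2.19 for SLA-DQA1 (-2.74 to -1.64, 5.36e-08) and -1.95 for SLA-DQB1 (-2.42 to -1.47, 3.16e-08). The peptide loading pair had log2 fold changes of -1.72 for SLA-DMA (-2.44 to -1.01, adjusted p = 7.78e-05) and -2.38 for SLA-DMB (-2.91 to -1.86, 4.18e-09). For SLA-DOA the value was -1.67 (-2.31 to -1.03, adjusted p = 3.07e-05), and for SLA-DOB it was -1.20 with an adjusted p of 0.0418, a fitted value at 0 to 7 reads per library that is no firm size. SLA-DOB was not called under RLE scaling (adjusted p = 0.0542 in edgeR's test), by DESeq2 (adjusted p = 0.0636) or in some fits without 1 sample (adjusted p up to 0.0772). The intervals of the 7 well covered genes overlapped one another. Levels in all 10 testis samples lay below those of all 10 liver samples for 3 of the 8 genes (SLA-DQA1, SLA-DQB1 and SLA-DMB), and for 15.3% of all reference IDs tested. This separation is that of TMM-scaled CPM. As a share of total counts, testis low sample 5 lay above liver high sample 4 for each of these 3 genes. For SLA-DMB these were 332 of 12462278 reads against 125 of 5796973.

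The size of the tissue difference depended on the scaling of the libraries. When libraries were scaled to their total counts only, log2 fold changes (testis minus liver) were -1.03 for SLA-DRA, -1.05 for SLA-DRB1, -1.20 for SLA-DQA1, -0.95 for SLA-DQB1, -0.68 for SLA-DMA, -1.37 for SLA-DMB and -0.61 for SLA-DOA. These 7 genes were still called higher in liver, as were 18.8% of all reference IDs tested, and SLA-DOB was not (-0.24, adjusted p = 0.691). The calls of SLA-DMA and SLA-DOA were narrow (adjusted p = 0.0434 and 0.0437 in edgeR's test). The median log2 fold change over all reference IDs tested moved with the scaling, from 0.31 under TMM to 1.28 under total counts. Relative to that median, the median of the 8 class II genes was -2.31 under TMM and -2.27 under total counts. A change of scaling moves all reference IDs by nearly the same amount. These 2 values were therefore bound to be close, and they do not show which scaling is right. Under TMM 42.6% of the calls were higher in liver, and under total counts 24%.

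**Figure D2:**
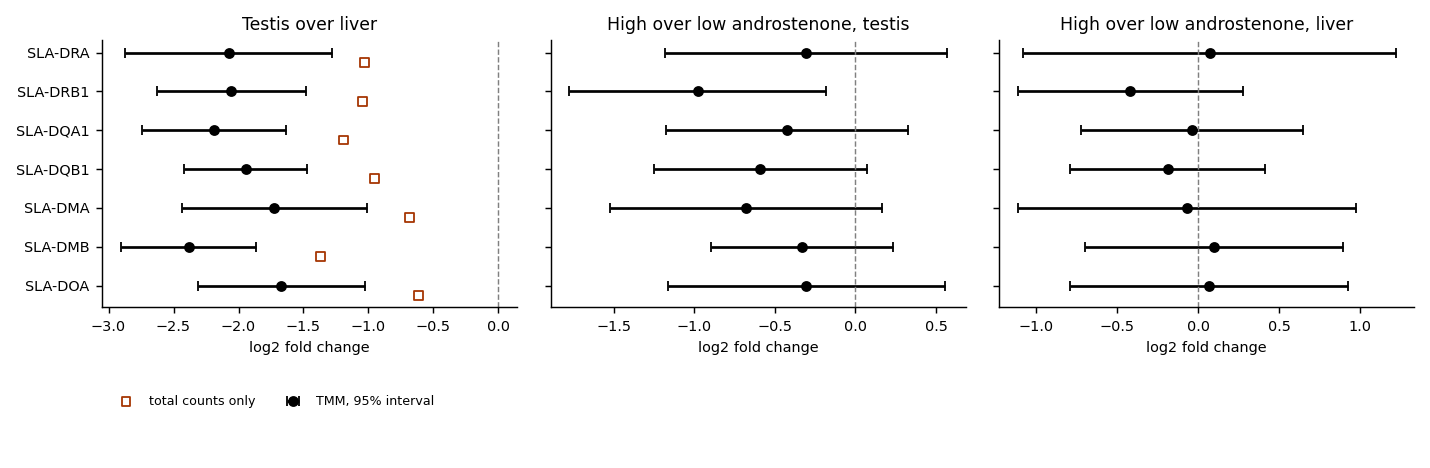
Log2 fold changes of the 7 well covered class II genes, with testis over liver in the left panel and high over low androstenone in testis (middle) and liver (right). Points are edgeR estimates with TMM scaling, bars their 95% intervals, open squares the estimates with total counts only, and the dashed line is no change. The intervals of the tissue comparison all lie below 0, and of the androstenone comparisons only that of SLA-DRB1 in testis does.

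The androstenone groups were compared within each tissue, which is the comparison the study was built on. In testis 0 of 8 class II genes were called, and 0% of the 18340 reference IDs tested were called in either direction. The study's own tests with DESeq called genes in both tissues, none of them among these 8. At an unadjusted p under 0.05 stood 9.49% of all reference IDs (1740) and 1 of the 8 class II genes, SLA-DRB1. DESeq2 also called 0 of the 8, and edgeR with trended in place of gene-wise dispersions (a likelihood ratio test) called 1, SLA-DRB1 (adjusted p = 0.00602). The high group averaged 59.3 ± 22.2 CPM and the low group 115 ± 71.0 CPM (SD, n = 5 each). The log2 fold change (high minus low) of SLA-DRB1 was -0.98 (95% interval -1.77 to -0.18), with an unadjusted p of 0.0194 and an adjusted p of 0.446 in edgeR's test. An exact two-sided permutation test of its log2(CPM + 0.5) values gave p = 0.151, where 5 against 5 samples allow no p below 0.00794. The 5 high samples spanned 34.1 to 85.7 CPM and lay inside the low group's span of 33.7 to 228 CPM. Without testis low sample 5, which held the highest level, the log2 fold change of SLA-DRB1 was -0.57.

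For the other testis comparisons, the log2 fold changes (high minus low) were -0.68 for SLA-DMA, -0.59 for SLA-DQB1, -0.43 for SLA-DQA1, -0.33 for SLA-DMB, -0.31 for SLA-DRA and -0.31 for SLA-DOA. Their intervals included 0 and were wide, for example -1.52 to 0.16 for SLA-DMA and -1.18 to 0.57 for SLA-DRA. The median over the 8 genes was -0.38, beside -0.02 over all reference IDs tested in testis. Without testis low sample 5, the values were -0.15 for SLA-DMA, -0.29 for SLA-DQB1, -0.17 for SLA-DQA1, -0.10 for SLA-DMB, 0.06 for SLA-DRA and 0.01 for SLA-DOA. Exact permutation tests gave p between 0.151 and 0.810 over the 8 genes. Over all reference IDs tested in testis, 1.86% had androstenone groups that did not overlap, and 0 of the 8 class II genes did.

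In liver 0 of 8 class II genes were called, again beside 0% of the 15855 reference IDs tested, and 2.93% of all reference IDs (465) but 0 of the 8 had an unadjusted p under 0.05 in edgeR's test. DESeq2 likewise called 0 of the 8. The log2 fold changes (high minus low) were -0.42 for SLA-DRB1 (95% interval -1.11 to 0.27), -0.19 for SLA-DQB1, -0.04 for SLA-DQA1, -0.07 for SLA-DMA, 0.07 for SLA-DRA, 0.07 for SLA-DOA and 0.10 for SLA-DMB. For SLA-DRA the interval ran from -1.08 to 1.22, so that a change of 2-fold in either direction was not detectable at this spread between boars. Permutation tests (exact, two-sided) gave p between 0.151 and 0.881. The liver high group held the highest and the lowest SLA-DRA level of the tissue, 1012 and 86.6 CPM. The median over the 8 genes was -0.06, beside 0.01 over all reference IDs.

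Whether the androstenone difference of a class II gene differed between testis and liver was tested as an interaction over the 20 libraries. Called were 0 of the 8 genes and 0% of all 19065 reference IDs, and 4.67% of the reference IDs (890) but 0 of the 8 had an unadjusted p under 0.05 in edgeR's test, and DESeq2 called 0 of the 8. The difference between the tissues was largest for SLA-DMA among the well covered genes, at -0.54 on the log2 scale (95% interval -1.94 to 0.85), and the adjusted p was 1 after rounding for each of the 8.

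The chains varied together from sample to sample. SLA-DRA was compared with the 6 other well covered chains over the 10 samples of each tissue, on log2(CPM + 0.5), which gave 12 relations (permutation tests with 100000 resamples, Benjamini-Hochberg adjusted over the 12). In testis Pearson's r lay between 0.849 (SLA-DRB1) and 0.965 (SLA-DMB), with Spearman's rho between 0.806 and 0.952 and adjusted p of at most 0.00303 for r and 0.0114 for rho. In liver r lay between 0.663 (SLA-DOA) and 0.952 (SLA-DMB), with rho between 0.648 and 0.988 and adjusted p of at most 0.0357 for r and 0.0496 for rho. SLA-DMB, a member of another chain pair, followed SLA-DRA more closely than its own partner SLA-DRB1 did, in testis (0.965 and 0.849) and in liver (0.952 and 0.787), though the difference between these correlations was not tested. After leaving out the 2 samples farthest from the median of SLA-DRA, r ranged from 0.687 to 0.936 in testis and from 0.316 (SLA-DOA) to 0.920 in liver, where SLA-DQB1 stood at 0.492. The liver relations of SLA-DOA and SLA-DQB1 with SLA-DRA thus rested in large part on liver sample 3 and liver sample 4 of the high group, the highest and the lowest in SLA-DRA.

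**Figure D3:**
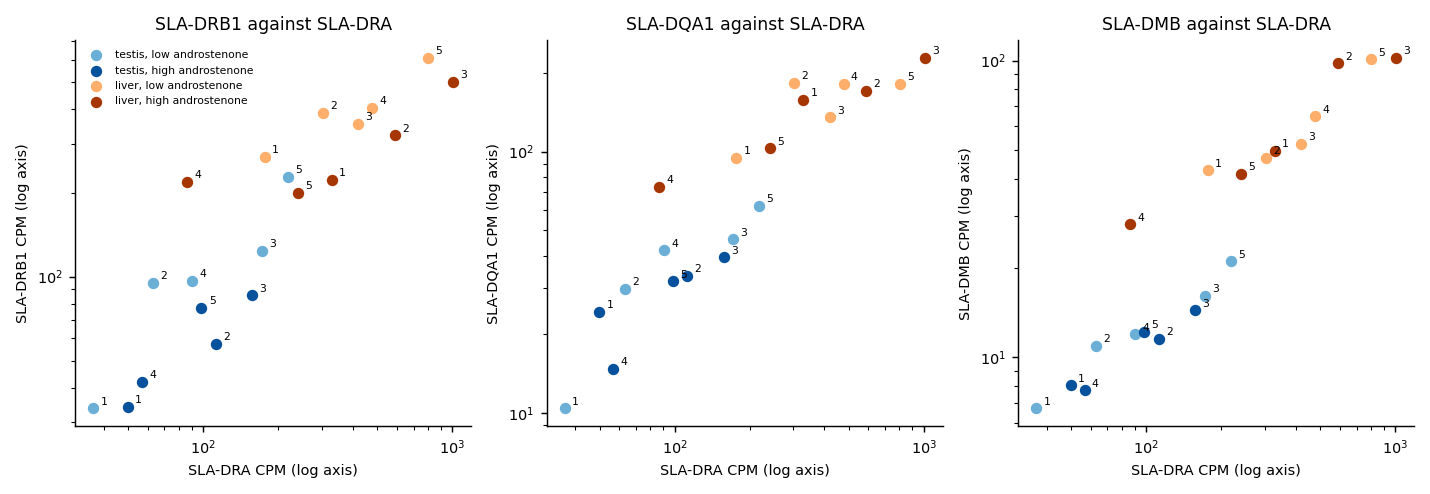
SLA-DRA CPM on the horizontal and CPM of SLA-DRB1, SLA-DQA1 or SLA-DMB on the vertical axis, both on log scales, with 1 point per library, the sample number beside it and the 4 groups in colour. Within each tissue the points rise together, most closely for SLA-DMB, and in the SLA-DRB1 panel the testis high points lie mostly below the testis low points at a given SLA-DRA level.

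The balance of alpha and beta chain reads was looked at after the counts had been seen. Ratios of read counts within a library need no scaling between libraries, and since chain lengths are not taken into account only differences between samples are read. The ratio of SLA-DRA to SLA-DRB1 was 1.08, 0.666, 1.39, 0.934 and 0.960 in testis low and 1.46, 1.97, 1.84, 1.35 and 1.27 in testis high. High androstenone samples averaged 1.58 ± 0.307 and low ones 1.01 ± 0.262 (SD, n = 5 each), and the groups overlapped in 1 low sample, number 3, which lay above 2 of the high samples. An exact permutation test of the log2 ratio gave p = 0.0238, which became 0.143 after adjustment over the 6 ratio comparisons. In liver the same ratio averaged 1.39 ± 0.637 for high and 1.03 ± 0.288 for low samples (exact permutation p = 0.571), with liver sample 4 of the high group at 0.396, the lowest ratio of all 20 libraries.

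SLA-DQA1 to SLA-DQB1 ratios averaged 1.16 ± 0.133 in testis high, 1.01 ± 0.202 in testis low, 1.36 ± 0.199 in liver high and 1.23 ± 0.181 in liver low (SD, n = 5 each). The exact permutation tests between androstenone groups gave p = 0.214 in testis and 0.365 in liver. SLA-DMA to SLA-DMB ratios averaged 0.356 ± 0.0646 in testis high, 0.429 ± 0.130 in testis low, 0.219 ± 0.0722 in liver high and 0.275 ± 0.0637 in liver low, with exact permutation p = 0.373 in testis and 0.206 in liver. None of the 6 comparisons passed after adjustment.

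Samples of the same group and number were also set side by side in testis and liver. The SLA-DQA1 to SLA-DQB1 ratio in testis went with that in liver over the 10 numbers (r = 0.821, permutation p = 0.00357, adjusted over 3 ratios 0.0107; rho = 0.733, adjusted p = 0.0631), and without the 2 samples farthest from the median r was 0.628. For SLA-DRA to SLA-DRB1 r was 0.457 (permutation p = 0.187) and for SLA-DMA to SLA-DMB 0.528 (permutation p = 0.110). Scaled by TMM, the 7 well covered genes were higher in liver than in testis of the same number for 10 of 10 numbers. The median difference on the log2(CPM + 0.5) scale was 1.24 (SLA-DMA) to 2.32 (SLA-DMB). As a share of total counts, SLA-DRA went the other way for number 4 of the high group. It had 477 of 6161397 reads in testis and 386 of 5796973 in liver. SLA-DOA was also slightly higher in testis by this share for numbers 3 and 5 of the low group. For number 3 it had 55 of 15733964 reads in testis and 30 of 8593568 in liver. For number 5 it had 65 of 12462278 in testis and 80 of 15360970 in liver. The share of all reference IDs with such a 10 of 10 was not computed.

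**Figure D4:**
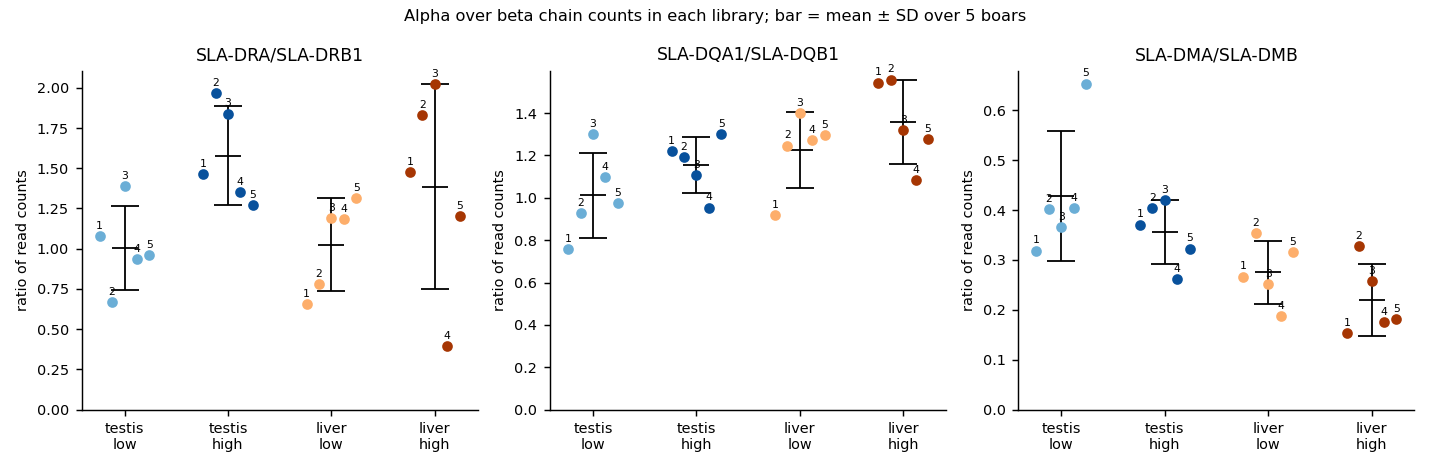
Ratio of alpha to beta chain read counts in each library for the DR, DQ and DM pairs, by tissue and androstenone group, with sample numbers and the mean ± SD over 5 samples. The testis high points of SLA-DRA over SLA-DRB1 lie between 1.27 and 1.97 and the testis low points between 0.666 and 1.39, and the other pairs overlap more widely.

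Other genes of the pathway were taken from fixed lists. Of 8 regulators of class II transcription, 2 resolved. RFX5, which binds the shared promoter module, was called higher in testis (log2 fold change, testis minus liver, 1.56 ± 0.17 SE, adjusted p = 7.46e-09), opposite to the 8 class II genes, and NFYB, a subunit of NF-Y, had a value of 0.55 under the fold threshold. With total counts only, both were called higher in testis, RFX5 at 2.54 and NFYB at 1.53 (adjusted p = 3.49e-09 in edgeR's test). The transactivator CIITA did not resolve. Of 8 genes of antigen processing in the endosome 5 resolved, and all 5 were called higher in liver: the proteases CTSL (-4.23), LGMN (-3.34) and CTSH (-2.10), the thiol reductase IFI30 (-1.39) and the lipid-presenting CD1D (-1.26). With total counts only, IFI30 (-0.38) and CD1D (-0.24) were no longer called, and 3 of 5 were. Beside this, 32.2% of all reference IDs tested were called higher in liver, and 18.8% with total counts only. The median of the 5 was -2.10, close to that of the class II genes.

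Of 6 genes of the interferon gamma axis 5 resolved and 4 were called higher in liver, namely the transcription factor IRF1 (-3.55), the kinases JAK2 (-1.84) and JAK1 (-1.06) and the receptor chain IFNGR1 (-1.24). With total counts only 2 of 5 were called (IRF1 and JAK2). In testis between androstenone groups, 0 of the 5 were called, and the 5 fitted values (high minus low) were below 0, with 2 at an unadjusted p under 0.05 in edgeR's test: IRF1 at -0.86 and IFNGR1 at -0.64. The MHC class I list (B2M, SLA-2, SLA-3 on 2 reference IDs and TAP1) was likewise called higher in liver for 5 of 5 reference IDs, with a median of -2.48. With total counts only 3 of 5 were called. The share of all reference IDs tested that were called higher in liver was 32.2%, and 18.8% with total counts only. In testis the 5 class I values between androstenone groups were below 0, with 0 called and a median of -0.59. The study's own test called 1 of the 2 SLA-3 reference IDs lower in high androstenone testis.

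Most markers of the cells that could carry class II moved with the tissue difference. Called higher in liver were 3 of 3 leukocyte markers (PTPRC, CD53 and LCP1), 7 of 8 macrophage markers, 4 of 6 dendritic cell markers, 8 of 9 T cell markers and 1 of 3 B cell markers, and with total counts only 3 of 3, 7 of 8, 3 of 6, 5 of 9 and 1 of 3, where ITGAM, CD80, CD83 and CD4 turned to higher values in testis. The T cell gene CD247 and the B cell gene PAX5 were called higher in testis. Of all reference IDs tested, 32.2% were called higher in liver and 43.5% higher in testis. With total counts only, 18.8% were called higher in liver. The 1 of 3 B cell markers called higher in liver was near the share of all reference IDs. The summed level of the 8 macrophage markers ranged from 11.1 to 48.0 CPM in the testis samples and from 598 to 928 CPM in the liver samples. In liver most of it was CD14, a surface receptor that hepatocytes are also known to express. CD14 averaged 432 and 429 CPM in liver low and high, and 0.997 and 1.07 CPM in testis low and high. The median log2 fold change (testis minus liver) was -3.51 for the macrophage and -3.56 for the leukocyte markers, beside -2.0 for the class II genes. The dendritic cell markers summed to 4.81 to 12.5 CPM in the testis libraries and 13.8 to 34.0 CPM in the liver libraries. For the B cell markers the sums were 0.213 to 1.44 CPM and 0.733 to 5.32 CPM, and PAX5 had 0 reads in the liver high group. The part of these cells in the tissue difference was not tested.

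Within testis, the same lists were below 0 for most genes in the high androstenone group: 6 of 8 macrophage markers (3 at an unadjusted p under 0.05 in edgeR's test), 3 of 3 leukocyte markers (1) and 8 of 9 T cell markers (4), with 0 called in each. The study's own test called CD5 of the T cell list lower in high androstenone testis. Over all reference IDs tested in testis, 52% had fitted values below 0 and 9.49% an unadjusted p under 0.05 in the same test. The median over the macrophage markers was -0.67, beside -0.38 for the class II genes. Dendritic cell markers stood at 0.29, with 2 of 5 below 0 (1 of the 5 at an unadjusted p under 0.05 in edgeR's test) and 0 called. That 1 was CD83, which went the other way, with a higher fitted level in the high androstenone group (0.81). Sample 1 of the testis low group, the lowest of its group for 7 of 7 class II genes, also had the lowest summed leukocyte and macrophage level of its group (12.5 and 11.1 CPM), and sample 5 the highest (22.7 and 48.0 CPM). In the testis high group, sample 3, the highest for 7 of 7 class II genes, was the highest in neither sum: the leukocyte sum was highest in sample 2 (16.9 CPM) and lowest in sample 5 (11.9 CPM), and the macrophage sum was highest in sample 5 (24.8 CPM) and lowest in sample 4 (14.7 CPM). PECAM1, an endothelial gene, was lowest in sample 1 as well, at 9.34 CPM where the group's median was 33.5 CPM. In liver the macrophage sums of the 2 groups lay between 598 and 928 and between 639 and 889 CPM, and the samples highest in class II were not the highest there: sample 3 of the high group, with a class II sum of 2057 CPM, had 754 CPM. The leukocyte sums in liver were highest in sample 5 of the low group (167 CPM) and sample 3 of the high group (176 CPM). In both tissues the dendritic cell sum was highest in sample 5 of the low and sample 3 of the high group. These samples also had the highest class II sums. The lowest samples of the dendritic cell and class II sums were the same in testis high and liver low, but not in testis low and liver high. The part of these markers in the androstenone comparisons was not tested.

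**Figure D5:**
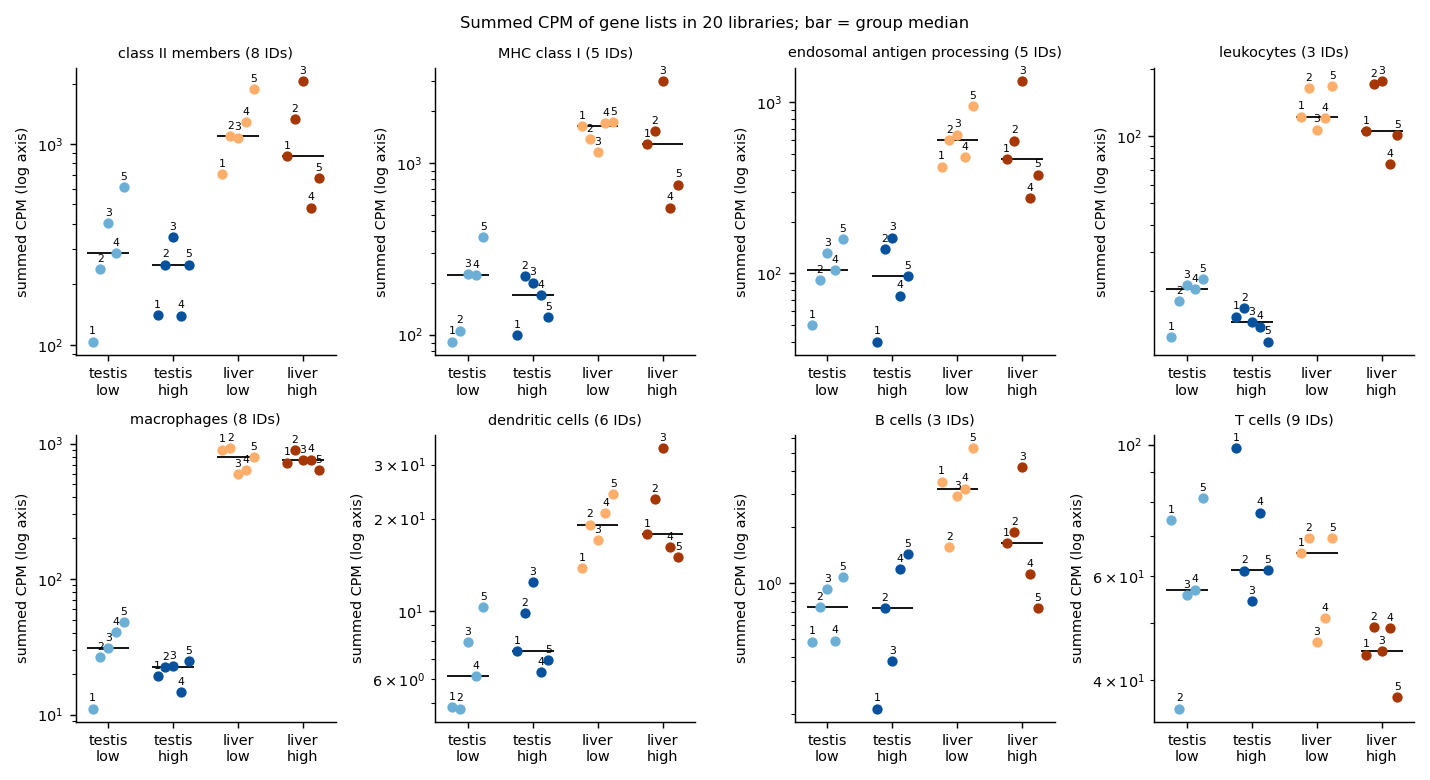
Summed CPM on log scales of the class II genes, the MHC class I genes, the endosomal processing genes and 5 marker lists in each library, by tissue and androstenone group, with sample numbers and the group median as a bar. In the liver high group, sample 3 is the highest and sample 4 the lowest in both the class II sum (2057 and 483 CPM) and the class I sum (2989 and 548 CPM), and the macrophage sum spans 598 to 928 CPM among liver samples.

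Likeness to the class II genes was measured as the mean Pearson r with the 7 well covered genes over the samples of a tissue, as a description, since all values of a sample share its library. Over the 10 testis samples the most alike of 4575 named reference IDs were LGALS3, the lectin galectin-3 (0.934), FCER1G, an Fc receptor chain (0.926), FCGRT, the neonatal Fc receptor (0.923), CD53, a leukocyte tetraspanin (0.917), and CAV1, the caveolar protein caveolin-1 (0.916). Over the 10 liver samples they were TRAPPC4 (0.887), the leukocyte actin-bundling LCP1 (0.876), TMEM39A (0.863), the tight junction gene CLDN2 (0.857) and PPIC (0.853), of 4070. With both tissues centred, C1S, a complement protease (0.851), CD53 (0.840), PPIC (0.817), IFI30 (0.815) and LOC100515837 (0.811) led 4726 named reference IDs. The median mean r over all 14711 reference IDs with a mean of at least 10 counts was 0.01 in testis and 0.08 in liver.

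The marker lists differed in this measure between the tissues. The 7 macrophage markers with enough counts had a median mean r of 0.836 in testis (0.537 to 0.926) and 0.127 in liver (-0.320 to 0.751). In liver the lysozyme gene LYZ stood at 0.751 and FCER1G at 0.519, AIF1, CD14 and TYROBP lay between 0.030 and 0.139, and 2 lay below 0. CSF1R, the receptor of the macrophage growth factor, stood at 0.872 in testis and -0.167 in liver, and C1QA, a complement gene of macrophages, at 0.848 and -0.320. Endosomal processing genes had similar medians in both, 0.717 in testis (-0.261 to 0.858) and 0.734 in liver (0.245 to 0.832). Single genes differed, with CD1D at -0.261 in testis and 0.725 in liver and CTSL at 0.540 and 0.245. The class I genes had medians of 0.730 in testis (0.480 to 0.901) and 0.674 in liver (0.385 to 0.778). Dendritic cell markers had medians of 0.477 and 0.558, and of these CD86, a costimulatory ligand, stood at 0.832 in testis and 0.671 in liver. T cell markers were at 0.184 and 0.403, and RFX5 at 0.07 and -0.01. The 3 liver genes ALB, APOA1 and TF had medians of 0.051 in testis and 0.734 in liver (0.0228 to 0.782). In liver their median was close to that of the endosomal genes and above those of the class I and dendritic cell lists. The 5 testis marker genes had medians of 0.440 in testis and -0.107 in liver, and leukocyte markers 0.505 and 0.768. PECAM1 stood at 0.881 and 0.305, and the B cell gene CD79A at 0.527 and 0.662. The difference between the tissues in these correlations was not tested.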

How the data were processed

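RNA was sequenced from testis and liver of boars with high and low androstenone, 5 samples per group. The authors amplified full-length cDNA, sequenced 1 lane per sample, called reads with CASAVA 1.7, aligned them with BWA to RefSeq mRNA and UniGene sequences of Sscrofa 9.2, used SAMtools, and deposited raw counts per reference ID without normalization. The counting tool is not given in the sources used here. Each sample lists 21785 lines, and 10 IDs repeated 4 times were used once. Symbols came from a RefSeq table (6654 IDs) and the study's tables (3 IDs).

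Counts were tested with edgeR 4.0.16 (R 4.3.3), with the quasi-likelihood test, TMM scaling and Benjamini-Hochberg adjustment over reference IDs with at least 10 counts in the samples fitted, in each tissue alone for androstenone and over 20 samples otherwise. Fits within a tissue used their own scaling factors. Exact permutation tests used log2(CPM + 0.5) in scipy 1.17.1 (Python 3.11.15), and p-values of comparisons within a tissue measure the spread between these boars. The tissue and interaction fits treated the 20 libraries as independent, although they came from 10 boars. Scripts were tested on simulated data. Named genes are the members, pathway genes that passed a test, IFI30, IRF1 and the 5 most alike symbols. A gene of the planned lists is not reported here. Members and lists were chosen with earlier results of these data known. SLA-DRA replaced the planned CD74, and a planned promoter search was not run for want of sequences. Alternatives included DESeq2 1.42.0 and are given in the closing section.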

Additional observations from a re-analysis of the deposited data

Results flagged for a closer look

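SLA-DMA in liver stood apart in 1 library. Sample 5 of the liver low group had 31.8 CPM, while the other 4 samples of that group ranged from 11.4 to 16.7 CPM, so that its gap to the next sample exceeded the limit of Dixon's test for 5 samples, at a ratio of gap to range of 0.741. Of 32 groups looked at (8 genes in 4 groups), this was the 1 that did, and chance gives about 1 in 20. In liver high, samples 2 and 3 had levels of the same size, 32.1 and 26.3 CPM. Without liver low sample 5 the log2 fold change of SLA-DMA in liver (high minus low) was 0.29 in place of -0.07.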

How the results depend on the processing

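The calls of SLA-DRA, SLA-DRB1, SLA-DQA1, SLA-DQB1, SLA-DMA, SLA-DMB and SLA-DOA as higher in liver held under RLE scaling, DESeq2, total counts only, other filters, IDs summed by symbol, the replicate block and without any 1 sample. Under total counts SLA-DMA and SLA-DOA passed narrowly (adjusted p = 0.0434 and 0.0437 in edgeR's test). SLA-DOB lost its call under RLE (-1.14, adjusted p = 0.0542), DESeq2 (-1.21, 0.0636) and total counts (-0.24, 0.691). In the fits without 1 sample, 7 to 8 members were called, SLA-DOB being the one lost (values -1.67 to -1.06, adjusted p up to 0.0772).

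Between androstenone groups in testis, 52 reference IDs were called by DESeq2 and 225 with the trended dispersion only, and 0 to 2 when 1 sample was left out. Of the members, 1 was called with the trended dispersion only, SLA-DRB1 (adjusted p = 0.00602). In liver 45 reference IDs were called with the trended dispersion only, and in the interaction 2 by DESeq2, with 0 members in both. The cause was not tested.

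Leaving out 1 sample moved the log2 fold changes (high minus low) in testis from -0.567 to 0.0565 for SLA-DRA and from -0.547 to 0.0086 for SLA-DOA, and in liver from -0.43 to 0.41 for SLA-DRA, -0.12 to 0.35 for SLA-DMB, -0.23 to 0.12 for SLA-DQA1, -0.46 to 0.23 for SLA-DOA and -0.50 to 0.29 for SLA-DMA. In the interaction SLA-DRA ranged from -0.68 to 0.20 and SLA-DOA from -0.55 to 0.28.

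With the replicate block, 0 reference IDs were called for androstenone in testis, in liver and for the interaction, and 14201 between tissues, with all 8 members. The block turned SLA-DRA (-0.0775) and SLA-DOA (-0.14) in liver and SLA-DRA in the interaction (0.0689). In the fits of testis alone or liver alone, a block can only join a low with a high boar. Those are separate animals, so these within-tissue values are not adjusted for the boar. Deviations of testis and liver samples of the same number correlated between -0.07 and 0.46 over 6609 reference IDs. The correlation was above 0.1 for 7 of 10 numbers, and its mean with the other numbers was below 0 for 9 of 10. The own number was the highest for 4 of 10. Low and high samples of the same tissue and number, which are different boars, correlated between -0.39 and 0.54. The labels do not state whether a number marks the same boar in both tissues, and these correlations did not settle it. The values reported are from fits without the block, which changed no call of a class II gene.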
